A study of Mus musculus with 8 samples.

Results

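The follistatin, myostatin and activin pathway was followed through 10 genes in muscle stem cells treated with sal003: the ligand genes Mstn, Inhba and Inhbb, the follistatin family genes Fst, Fstl1 and Fstl3, and the receptor genes Acvr1b, Tgfbr1, Acvr2a and Acvr2b. They were picked by gene symbol from a table of 39017 genes, and each symbol matched 1 row. Satellite cells from diaphragm and abdominal muscle of adult Pax3GFP/+ mice, in which 1 Pax3 allele carries a green fluorescent protein reporter, were seeded at 7500 per 35 mm plate. They grew for 4 days with 10 µM sal003, an inhibitor of eIF2α dephosphorylation (4 libraries), or with its vehicle DMSO (4 libraries). Both groups shared the genotype, the tissue and the time in culture, and RNA was sequenced in bulk.

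Myostatin, activins and related ligands of the TGF-beta superfamily bind a type II receptor, which recruits and activates a type I receptor, and the pair phosphorylates SMAD2 and SMAD3. Follistatin is a secreted protein that wraps around activins and myostatin and keeps them from their receptors. In skeletal muscle myostatin limits growth, and follistatin is known as a promoter of muscle growth.

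Library totals ranged from 37248830 to 39378523 counts in sal003 and from 32753929 to 40234107 in DMSO. DMSO replicate 2 stood apart, with 14437 genes detected against 16561 to 18076 in the other libraries. Whether the replicates are separate animals or cultures is not stated in the labels, and the p-values therefore reflect library-to-library spread alone, which may be technical. Satellite cell and myoblast markers were present in both groups: Pax7 averaged 97.2 ± 2.54 CPM (counts scaled to library size) in sal003 and 72.1 ± 6.74 CPM in DMSO (SD, n = 4 each). Ptprc, Lyz2 and Cd3e of immune cells, Tie1, Emcn and Cldn5 of endothelial cells, Dcn, Lum, Dpt and Mfap5 of fibroblasts, and S100b of Schwann cells had 0 counts in all 8 libraries, which at 3 counts per library allows at most 0.0959 CPM.

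Transcripts of follistatin and of myostatin, the ligand it binds, were both several-fold lower in sal003. Those of follistatin-like 3 fell by less, and none of the 4 receptor genes passed the test in either direction. Of the 9 members with enough counts to test, 3 were lower in sal003, 0 were higher and 6 did not pass (edgeR quasi-likelihood test, Benjamini-Hochberg adjusted p below 0.05). Across the 15816 genes tested, 22.7% were called, 12.2% lower and 10.6% higher. For 4 members, Fst, Mstn, Fstl3 and Inhbb, all sal003 libraries lay below all DMSO libraries, which was so for 13.7% of all tested genes, while 26.8% did not overlap in either direction. The median log2 fold change of the 9 members was -0.73, beside a median of -0.0034 over all tested genes.

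**Figure D1:**
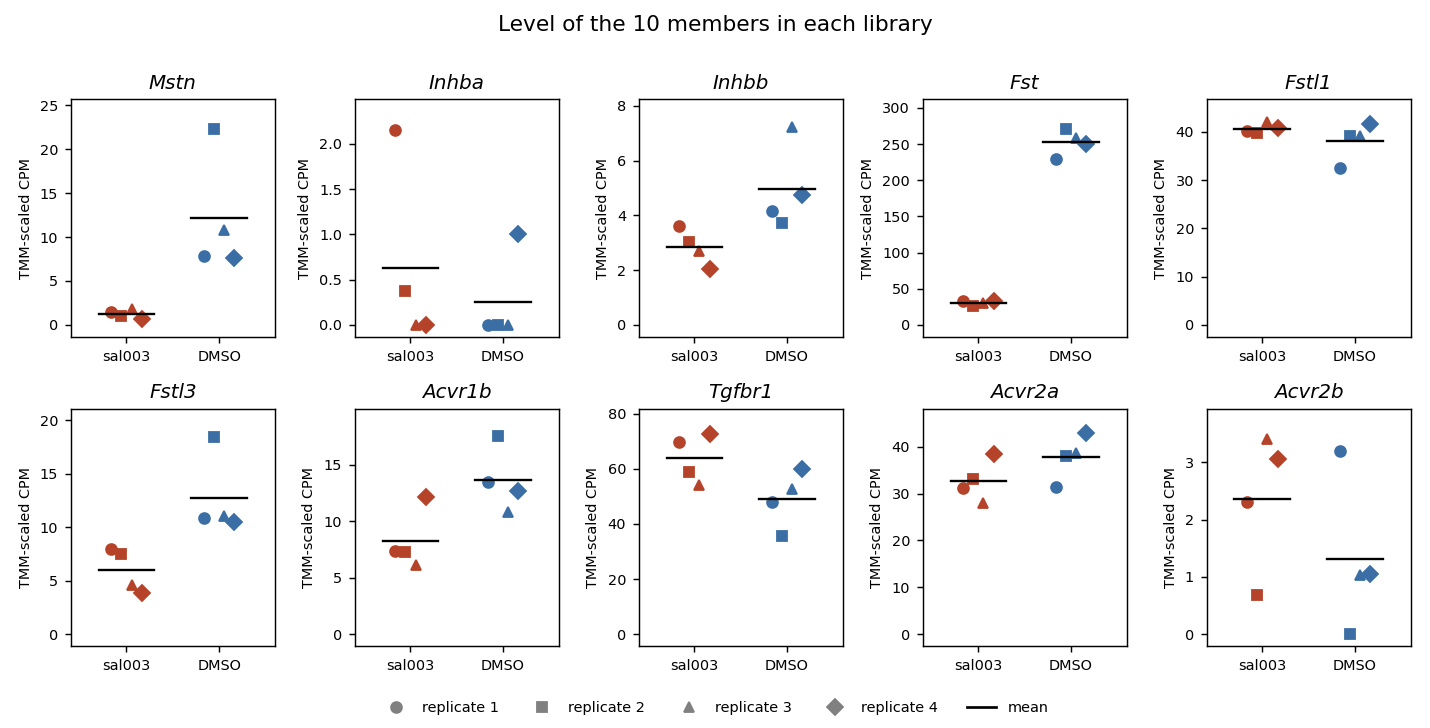
TMM-scaled CPM (y axis, linear, a separate scale in each panel) of each member in the 4 sal003 and 4 DMSO libraries; symbols mark the replicate number and the line is the mean of 4. Fst and Mstn are far lower in every sal003 library than in any DMSO library, while Fstl1, Acvr2a and Tgfbr1 overlap between the groups.

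Fst, which encodes follistatin (ENSMUSG00000021765, chromosome 13, 114452290 to 114458951, minus strand of mm10), stood at 33.0, 25.9, 30.1 and 32.5 CPM in the 4 sal003 libraries, against 229.9, 271.0, 258 and 251 CPM in the 4 DMSO libraries. Every sal003 library lay far below every DMSO library, and the libraries of a group lay close together, with a coefficient of variation of 10.6% in sal003 and 6.83% in DMSO. The mean was 30.4 ± 3.23 CPM in sal003 and 252 ± 17.2 CPM in DMSO (SD, n = 4 each), a log2 fold change of -3.05 ± 0.11 (SE; edgeR adjusted p = 9.41e-11), or an 8.31-fold lower level. Of all 15816 genes tested, 1 had a smaller p than Fst, and 0.923% had a fold change as low or lower. Exons of Fst share 115 bases with the antisense gene Gm47040, whose symbol was not found among the counted genes. Because the RNA came from whole cultures, fewer Fst-expressing cells and less Fst RNA per cell cannot be told apart, here and for every gene described.

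Mstn, which encodes myostatin (ENSMUSG00000026100, chromosome 1, 53061640 to 53068079, plus strand), had 1.52, 0.997, 1.75 and 0.669 CPM in the sal003 libraries, against 7.89, 22.2, 10.8 and 7.63 CPM in the DMSO libraries. These rest on 26 to 70 counts per sal003 library and 247 to 750 per DMSO library. All sal003 libraries were again below all DMSO libraries, though the DMSO libraries were spread widely and replicate 2 held the highest value. This gave a log2 fold change of -3.29 ± 0.45 (SE; edgeR's adjusted p = 5.15e-05), a 9.79-fold lower level with a 95% interval from -4.25 to -2.34 on the log2 scale. Without DMSO replicate 2 it was -2.81 ± 0.40 (edgeR adjusted p = 1.06e-05).

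Fstl3 encodes a secreted relative of follistatin that also binds activins and myostatin (ENSMUSG00000020325, chromosome 10, 79777272 to 79782630, plus strand). It had 8.02, 7.50, 4.61 and 3.86 CPM in sal003, against 10.9, 18.4, 11.1 and 10.5 CPM in DMSO. The groups did not overlap, but the highest sal003 library came close to the lowest DMSO library. This gave a log2 fold change of -1.08 ± 0.31 (SE; edgeR's adjusted p = 0.0188), a 2.12-fold lower level. The call was lost without sal003 replicate 3 (log2 fold change -0.97, adjusted p = 0.0671) and without sal003 replicate 4 (-0.92, adjusted p = 0.0620), and it held without DMSO replicate 2 (-0.84, adjusted p = 0.0362). The annotation places 1157 bases of Fstl3 exons over exons of Prss57 on the opposite strand, a gene that averaged 0 CPM in sal003 and 0.0526 CPM in DMSO.

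The bases just before the annotated start of Mstn and of Fstl3 are shown because both genes fell. They come from a set of 300-base windows placed on RefSeq's annotation of GRCm38.p6. The set used here held 9 of the 10 members and had no window for Fst. Capitals mark the E-box letters CANNTG, the general site of basic helix-loop-helix factors. The pattern matches on both strands at once, though the letters at NN can differ between the strands. The Mstn stretch is chr1:53061390-53061639 and the Fstl3 stretch chr10:79777024-79777271, both on the plus strand and read 5′ to 3′.
Mstn: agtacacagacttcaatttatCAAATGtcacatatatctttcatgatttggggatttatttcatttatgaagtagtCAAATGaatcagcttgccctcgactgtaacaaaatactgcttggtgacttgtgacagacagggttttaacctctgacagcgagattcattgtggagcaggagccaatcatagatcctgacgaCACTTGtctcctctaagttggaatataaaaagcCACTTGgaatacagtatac
Fstl3: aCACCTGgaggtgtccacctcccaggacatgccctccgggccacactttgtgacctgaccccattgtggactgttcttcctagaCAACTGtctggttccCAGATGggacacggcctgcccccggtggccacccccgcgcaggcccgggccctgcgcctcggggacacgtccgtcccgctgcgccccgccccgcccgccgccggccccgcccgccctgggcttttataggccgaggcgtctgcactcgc
Positions count back from RefSeq's start, at base 53061640 for Mstn and 79777274 for Fstl3; the Fstl3 stretch ends 2 bases earlier, before the gene start given above for mm10. Counted so, E-boxes began at -229, -174, -52 and -19 in Mstn and at -249, -166 and -151 in Fstl3. A TATAAA began at -29 in both, on the minus strand in Fstl3. The letters CAGACA, a SMAD-binding element, began at -120 in Mstn, and on the minus strand of Fstl3 they lay at -162, where they overlapped the E-box at -166. In the 300-base windows around annotated starts, from 250 bases before to 50 after, 4 of the 9 members held CANNTG (Mstn, Fstl3, Acvr1b and Tgfbr1), against 72.3% of 32851 windows over all genes. CAGACA or its complement was in the windows of 3 members (Mstn, Fstl3 and Tgfbr1) and in 21% of all windows, and TATAAA in those of 3 members (Mstn, Fstl3 and Inhba) and in 13.6% of all. The E-box CAGCTG was in 0 of the 9 and in 16.3% of all, CACCTG in 1, Fstl3, and in 20.2% of all, and the MEF2 motif in 1, Inhba, and in 3.19% of all. These matches are letters in a window and were not tested as binding sites.

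The other follistatin family member, Fstl1, encodes a secreted glycoprotein with a follistatin-like domain (ENSMUSG00000022816, chromosome 16, 37776873 to 37836514, plus strand). Its level was 40.2, 39.7, 42.0 and 40.7 CPM in sal003, against 32.4, 39.1, 39.1 and 41.7 CPM in DMSO. The groups overlapped. This gave a log2 fold change of 0.09 ± 0.13 (SE; edgeR's adjusted p = 0.703), and its 95% interval ran from -0.18 to 0.37.

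The activin subunit genes were scarce, and Inhba was at the detection limit. Inhbb, the beta B subunit of activin B (ENSMUSG00000037035, chromosome 1, 119415465 to 119422248, minus strand), had 3.63, 3.04, 2.71 and 2.06 CPM in sal003, against 4.15, 3.74, 7.23 and 4.73 CPM in DMSO. The 2 groups did not overlap, yet the log2 fold change of -0.80 ± 0.44 (SE) did not pass (edgeR adjusted p = 0.237, 95% interval -1.72 to 0.13). Inhba, the beta A subunit of activin A (ENSMUSG00000041324, chromosome 13, 16011851 to 16031621, plus strand), had 88, 16, 0 and 0 counts in sal003 and 0, 0, 0 and 38 in DMSO. It failed the filter on low counts, was not tested, and gave no fold change. In a library with 0 counts, a limit of 3 counts corresponds to 0.0752 to 0.0959 CPM.

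Among the receptors, the type I receptor gene Acvr1b, whose product transmits activin and myostatin signals (ENSMUSG00000000532, chromosome 15, 101174067 to 101213684, plus strand), had 7.35, 7.29, 6.14 and 12.2 CPM in sal003. In DMSO it had 13.5, 17.6, 10.8 and 12.7 CPM. Only sal003 replicate 4 reached into the DMSO range. The log2 fold change of -0.73 ± 0.27 (SE) missed the threshold (edgeR adjusted p = 0.0705). It passed without sal003 replicate 4 (-0.97, adjusted p = 0.0229), with a stricter filter on low counts (adjusted p = 0.0371) and with limma-voom (adjusted p = 0.0402).

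Tgfbr1, the type I receptor of TGF-beta that myostatin can also use (ENSMUSG00000007613, chromosome 4, 47353222 to 47414931, plus strand), had 69.8, 58.7, 54.0 and 72.5 CPM in sal003, against 48.1, 35.5, 52.7 and 59.9 CPM in DMSO. The groups overlapped, and DMSO replicate 2 was the lowest library. The log2 fold change of 0.38 ± 0.16 (SE) did not pass (edgeR adjusted p = 0.106) and passed without DMSO replicate 4 (0.50, adjusted p = 0.0367).

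Acvr2a, a type II receptor of activins and myostatin (ENSMUSG00000052155, chromosome 2, 48814109 to 48903269, plus strand), had 31.1, 33.0, 27.9 and 38.4 CPM in sal003, against 31.4, 38.0, 38.6 and 43.0 CPM in DMSO. The groups overlapped, with a log2 fold change of -0.21 ± 0.15 (SE; edgeR adjusted p = 0.389, 95% interval -0.53 to 0.11). Exons of Acvr2a share 446 bases with Orc4 on the opposite strand, which averaged 69.0 ± 9.28 CPM in sal003 and 64.9 ± 6.33 CPM in DMSO. Acvr2b, the type II receptor that binds myostatin most tightly (ENSMUSG00000061393, chromosome 9, 119402118 to 119434995, plus strand), was scarce, at 2.30, 0.688, 3.41 and 3.06 CPM in sal003 and 3.20, 0, 1.03 and 1.05 CPM in DMSO. Its libraries were too scattered to place the change, with a log2 fold change of 0.84 ± 1.05 (SE; edgeR adjusted p = 0.665, 95% interval -1.38 to 3.07), and without 1 library the estimate ran from 0.44 (without DMSO replicate 2) to 1.77 (without DMSO replicate 1).

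**Figure D2:**
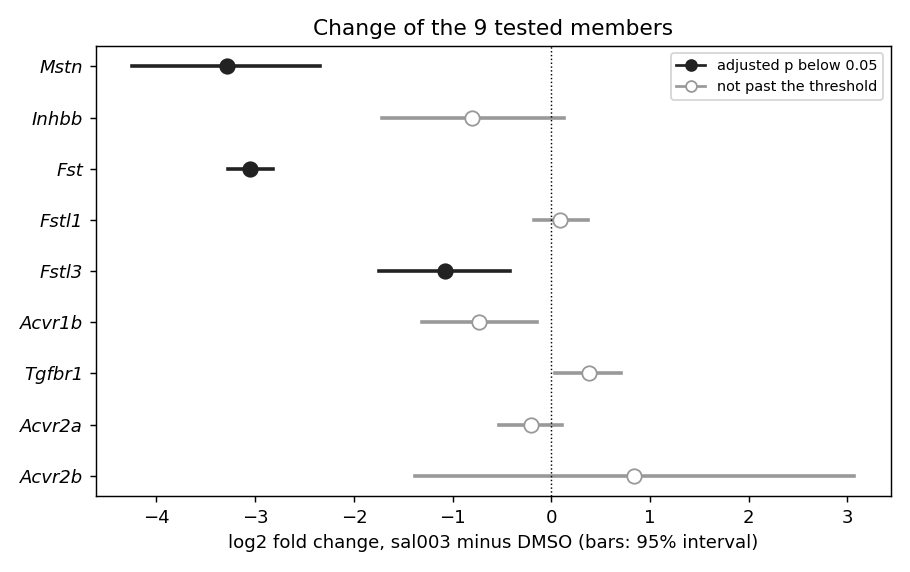
Log2 fold change of the 9 tested members, sal003 minus DMSO (x axis), with 95% intervals as bars; filled points passed the edgeR test and open points did not. Mstn at -3.29 and Fst at -3.05 lie far left of the others, Fstl3 follows at -1.08, and Acvr2b has the widest interval.

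Levels were compared between members only after division by exon length. In sal003 Fst averaged 6.62 ± 0.705 CPM per kilobase of exon, behind Tgfbr1 at 9.76 ± 1.35 and Fstl1 at 8.27 ± 0.201 (SD, n = 4). In DMSO it averaged 55.0 ± 3.76 CPM per kilobase, ahead of Fstl1 at 7.75 ± 0.806 and Tgfbr1 at 7.51 ± 1.57, and no library of another member reached its range. Fst made up 16.3% to 19.5% of the summed length-scaled level of the 10 members in sal003 libraries and 59.2% to 61.3% in DMSO libraries.

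In the order of length-scaled levels, sal003 ran Tgfbr1, Fstl1, Fst, Acvr2a, Fstl3, Acvr1b, Inhbb, Acvr2b, Mstn and Inhba. Neighbours whose library ranges did not overlap in sal003 were Fstl1 and Fst, Acvr2a and Fstl3, and Acvr1b and Inhbb. The order in DMSO was Fst, Fstl1, Tgfbr1, Acvr2a, Fstl3, Mstn, Acvr1b, Inhbb, Acvr2b and Inhba, with separate neighbours at Fst and Fstl1, Acvr1b and Inhbb, and Inhbb and Acvr2b. Mstn thus stood ninth in sal003, at 0.457 ± 0.182 CPM per kilobase, and sixth in DMSO, at 4.48 ± 2.55.

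Follistatin transcripts exceeded myostatin transcripts in both groups. The ratio of Fst to Mstn, each per kilobase, was 12.8, 15.3, 10.1 and 28.6 in sal003 libraries and 17.2, 7.18, 14.2 and 19.4 in DMSO libraries. The ranges overlapped between the groups.

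**Figure D3:**
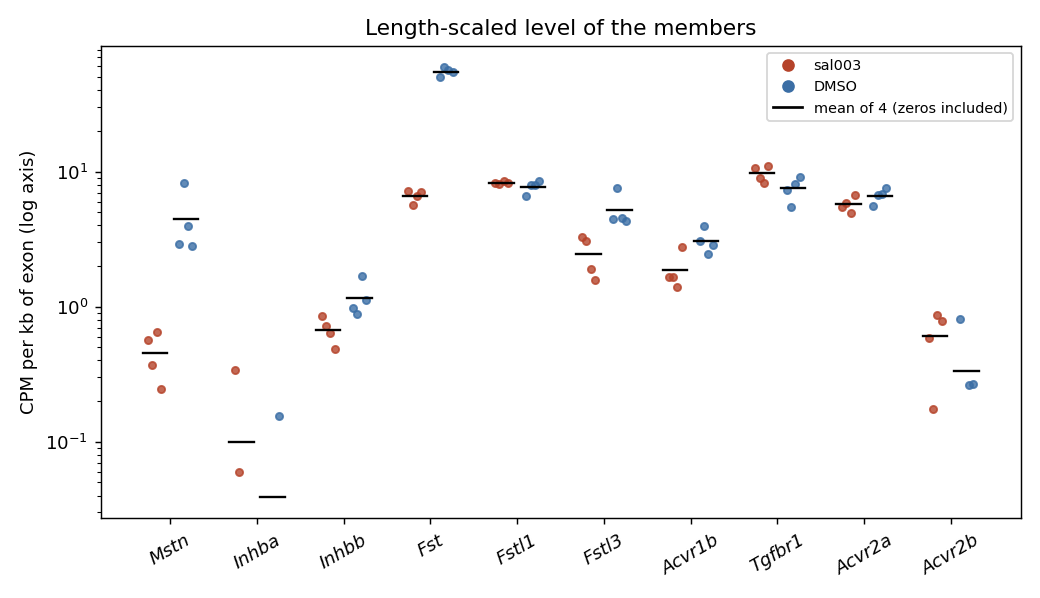
CPM per kilobase of exon (y axis, log scale) of each member, with 1 point per library, sal003 in red and DMSO in blue, and the mean of 4 as a line; libraries at 0 have no point but count in the mean. Fst is the highest member in DMSO at 55.0. In sal003 it averages 6.62, below every Fstl1 library, and its range overlaps that of Acvr2a.

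Among the other ligands of the family, transcripts of Tgfb2, Tgfb3, Inha, Gdf6 and Gdf11 were lower in sal003. Of 17 further ligand genes, 9 could be tested, 5 were lower, 0 were higher and 4 did not pass, where 12.2% of all genes tested were lower and 10.6% higher. Their median log2 fold change of -1.75 is the value of Bmp4, which had 0 to 36 counts per library and did not pass. Tgfb3 averaged 52.2 ± 4.38 CPM in sal003 and 164 ± 16.6 CPM in DMSO (SD, n = 4 each), a log2 fold change of -1.65 ± 0.11 (SE; edgeR adjusted p = 1.87e-08). Tgfb2 averaged 41.4 ± 9.71 CPM in sal003 and 159 ± 24.9 CPM in DMSO, a log2 fold change of -1.94 ± 0.16. Inha, whose alpha subunit pairs with the activin beta chains to make the activin antagonist inhibin, averaged 4.59 ± 1.74 CPM in sal003 and 27.0 ± 2.91 CPM in DMSO (-2.56 ± 0.26). Gdf6, a growth factor of the bone morphogenetic protein (BMP) branch, had -2.45 ± 0.26. Gdf11, the closest relative of myostatin and singled out after its value was seen, averaged 53.7 ± 6.30 CPM in sal003 and 92.2 ± 18.2 CPM in DMSO (-0.78 ± 0.15, edgeR adjusted p = 0.000993).

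Over all genes tested, 12.2% were lower and 10.6% higher. Of 11 further receptor genes, 9 were tested, 2 were lower, 0 were higher and 7 did not pass, with a median of 0.13. Both that fell serve BMPs: the type II receptor Bmpr2 at -0.42 ± 0.08 and the type I receptor Acvr1 at -0.57 ± 0.12. Of 16 further extracellular binding proteins, 11 were tested, 1 was higher and 2 were lower, with a median of 0.04. The BMP antagonist noggin (Nog) averaged 7.40 ± 1.65 CPM in sal003 and 19.6 ± 2.28 CPM in DMSO (-1.40 ± 0.23), and chordin (Chrd) had -2.16 ± 0.37. Twsg1, a modulator of BMPs, was the 1 that rose (0.33 ± 0.11, edgeR adjusted p = 0.0360), and leaving out 1 library at a time ended that call in 5 of 8 cases (largest adjusted p 0.117), as did fitting without the filter on low counts (adjusted p = 0.0542).

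Among 8 proteases that release or process these ligands, 6 were tested, 2 were lower and 0 were higher, with a median of -0.04. The shares over all genes tested were 12.2% lower and 10.6% higher. The matrix metalloproteinase Mmp2 had a log2 fold change of -1.44 ± 0.26. The proprotein convertase Furin, which cleaves the precursors of myostatin and TGF-beta, averaged 219.9 ± 5.40 CPM in sal003 and 281 ± 44.8 CPM in DMSO (-0.35 ± 0.10, edgeR adjusted p = 0.0212). Leaving out single libraries ended that call in 4 of 8 cases (largest adjusted p 0.0631).

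Inside the cell, all 16 SMADs and regulators were tested, 2 rose, 2 fell and 12 did not pass, with a median of 0.12, shares near those over all genes (10.6% higher and 12.2% lower). Smad3, one of the SMADs that activin and myostatin receptors phosphorylate, averaged 18.1 ± 4.31 CPM in sal003 and 51.9 ± 2.48 CPM in DMSO, a log2 fold change of -1.52 ± 0.17 (SE; edgeR adjusted p = 7.79e-06). Its partner Smad2, named after its value was seen, averaged 42.2 ± 2.67 CPM in sal003 and 36.7 ± 4.58 CPM in DMSO and did not pass (0.20 ± 0.13, edgeR adjusted p = 0.346). The inhibitory Smad6 fell (-0.62 ± 0.15), while Smad9 of the BMP branch (0.74 ± 0.15) and Zfyve9, which presents SMAD2 and SMAD3 to the receptor (0.47 ± 0.13), rose.

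Of 20 symbols listed as textbook targets of SMAD2 and SMAD3, 18 were in the table and tested, 6 fell, 0 rose and 12 did not pass, with a median of -0.16. The 4 with the smallest p were the cell cycle inhibitor Cdkn1a (-1.85 ± 0.10), the actin-binding protein Tagln (-2.44 ± 0.21), thrombospondin 1 (Thbs1, -0.83 ± 0.09) and Pmepa1, a feedback inhibitor of the pathway (-0.30 ± 0.09). Cdkn1a is also induced by p53 and during myogenic differentiation, and Tagln is also a smooth muscle marker. For Pmepa1, 6 of 8 such omissions ended the call (largest adjusted p 0.113), as did fitting without the filter (adjusted p = 0.0555). The feedback genes Smad7 and Skil, named after their values were seen, did not pass, at 0.04 ± 0.12 and 0.00 ± 0.08 (edgeR adjusted p = 0.893 and 0.999). Over the 6 lists together, 66 genes were tested, 3 rose (4.55%) and 19 fell (28.8%), against 10.6% and 12.2% of all genes, and without DMSO replicate 2 the numbers were 9 and 20.

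**Figure D4:**
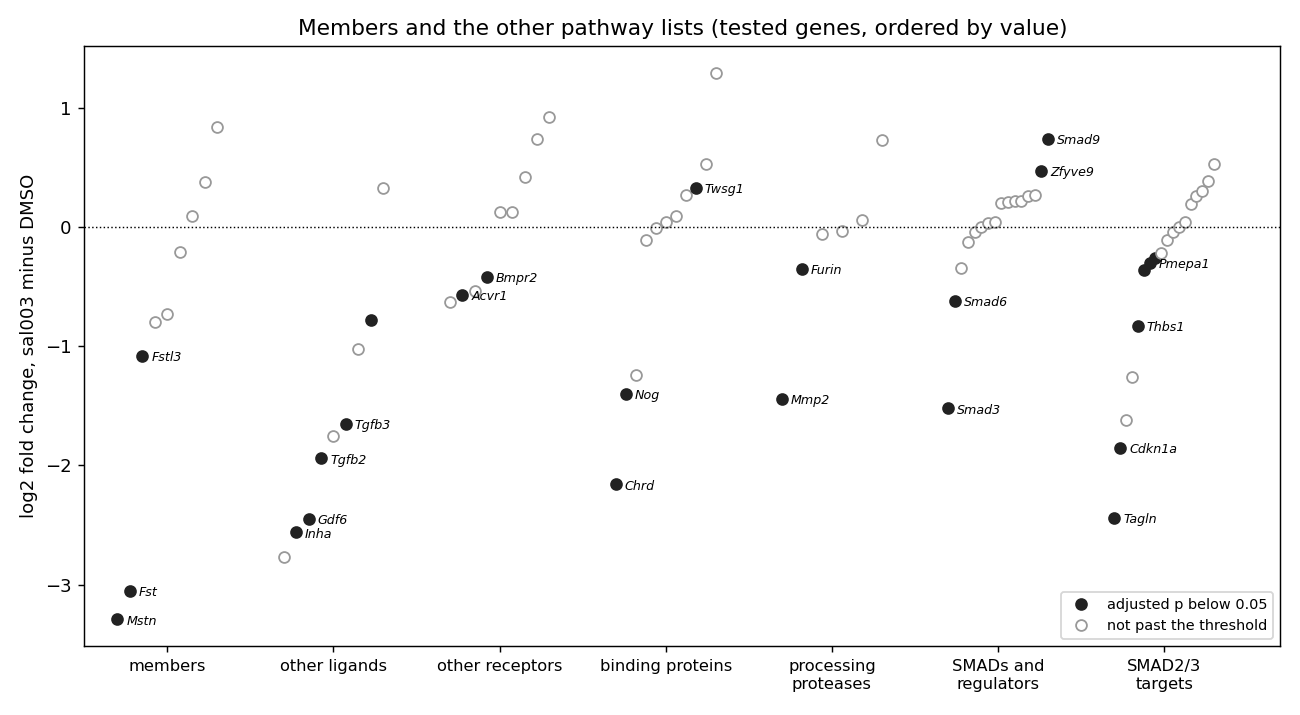
Log2 fold change, sal003 minus DMSO (y axis), of the tested members and of the tested genes of 6 further pathway lists, ordered by value within each list; filled points passed the edgeR test. Filled points lie mostly below 0, with Smad9, Zfyve9 and Twsg1 above it.

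Over the 8 libraries, the genes whose centred log2 CPM ran closest to Fst were Actn2, Cacna1s, Fhl1 and Casq2. The search covered 11415 named genes with a mean of at least 1 CPM. Genes without a symbol or with provisional names, such as Gm, Rik or clone names, were left out. The root mean square difference from Fst was 0.133, 0.166, 0.169 and 0.178 log2 units. Actn2, the alpha-actinin of the Z-disc, averaged 85.7 CPM in sal003 and 732 CPM in DMSO, and Cacna1s, a subunit of the muscle calcium channel, 50.2 CPM in sal003 and 478 CPM in DMSO. Fhl1, a LIM-domain protein, averaged 14.8 CPM in sal003 and 103.9 CPM in DMSO, and Casq2, a calcium-binding protein of the sarcoplasmic reticulum, 59.3 CPM in sal003 and 437 CPM in DMSO. Closeness here includes the difference between the groups, which all 5 genes share.

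**Figure D5:**
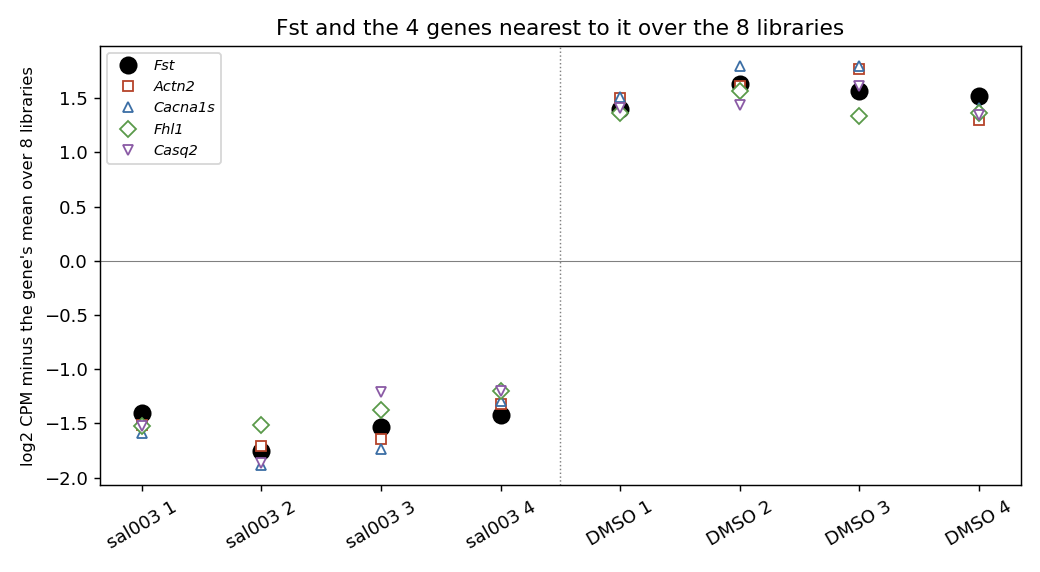
Log2 CPM minus the gene's own mean over 8 libraries (y axis) for Fst and the 4 nearest genes, in each sal003 and DMSO library (x axis). The 5 genes lie together below 0 in all 4 sal003 libraries and above 0 in all 4 DMSO libraries.

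The genes nearest to Mstn were farther away: Jakmip1, Folr1, Tmem117 and Fam78a, at 0.402 to 0.502 log2 units. Mstn had only 26 to 70 counts per sal003 library. Its coefficient of variation was 39.9% in sal003 and 56.8% in DMSO, and the part of this spread in the distance was not tested. For Fstl3 they were Bcat2, Mir1963, Surf1 and Bet1l, at 0.143 to 0.203 log2 units.

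Markers of muscle differentiation moved with Fst and Mstn. Of 10 markers of the muscle lineage, all tested, 1 rose, 6 fell and 3 did not pass. Over all genes tested, 10.6% rose and 12.2% fell. The summed level of the 10 markers was 5532 to 6597 CPM in sal003 libraries and 15360 to 19670 CPM in DMSO libraries. Myogenin (Myog) averaged 870.3 ± 66.0 CPM in sal003 and 2634 ± 248 CPM in DMSO, and embryonic myosin Myh3 averaged 1749 ± 299.5 CPM in sal003 and 9082 ± 2099 CPM in DMSO (SD, n = 4 each). The structural gene Des (-1.33 ± 0.08) and the acetylcholine receptor gene Chrna1 (-0.90 ± 0.07) fell as well. The 3 that did not pass, named after their values were seen, were Myod1 (-0.01 ± 0.08), Myf5 (0.38 ± 0.19) and Pax3 (0.33 ± 0.19). Pax7, the 1 that rose and named after its value was seen, had 0.43 ± 0.10. The part of this shift in the fall of Fst and Mstn was not tested.

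Among markers of other cell types, 5 of 7 smooth muscle and pericyte genes were tested and 3 fell. These were Abcc9 (-2.34 ± 0.13), Acta2 (-1.72 ± 0.11) and Cspg4 (-0.40 ± 0.11). For this and the lists below, 12.2% of all genes tested fell and 10.6% rose. The call on Cspg4 was lost without sal003 replicate 1 (adjusted p = 0.0692) and without sal003 replicate 2 (adjusted p = 0.0677). The summed level of the 7 smooth muscle and pericyte genes was 543.9 to 732 CPM in sal003 and 1724 to 1914 CPM in DMSO. Most of it came from Acta2, which immature muscle cells also express. The defining smooth muscle gene Myh11 averaged 0.552 CPM in sal003 and 0.804 CPM in DMSO, and the pericyte gene Rgs5 0.256 CPM in sal003 and 0.703 CPM in DMSO. Of the fibroblast list 5 of 10 genes were tested and 0 passed, and the sums were 102 to 122 CPM in sal003 and 101 to 117 CPM in DMSO, nearly all from Col3a1. Of the Schwann cell list 2 of 5 were tested and 1 fell, Ngfr (-0.78 ± 0.12), and the sums were 77.1 to 87.3 CPM in sal003 and 117 to 166 CPM in DMSO. Endothelial genes (3 of 7 tested, 0 passed) summed to 2.75 to 6.04 CPM in sal003 and 0.890 to 4.29 CPM in DMSO, and immune genes (2 of the 6 found in the table tested, 0 passed) to 2.16 to 4.56 CPM in sal003 and 2.36 to 5.82 CPM in DMSO.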

How the data were processed

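RNA sequencing counts were deposited by the authors as 1 table of whole-number counts per gene over exons. Per the labels' protocols, total RNA was depleted of ribosomal and mitochondrial RNA and made into stranded SMARTer libraries. Tools named in the submitters' processing notes are featureCounts 1.4.4, STAR 2.3.0e and Trimmomatic 0.32, with the build mm10. How strand and overlapping genes were counted is not given in the sources used here. Values of genes with antisense neighbours are uncertain for that reason. The dose of 10 µM is that of the sample attributes; the treatment protocol writes 10 mM. Low counts were mostly even (75.6% to 83.4% of counts from 1 to 20 per library), so a count may not stand for 1 fragment. Both mates of a pair may have been counted, which was not tested, and halved counts were among the alternatives. Limits set by 0 counts cover counting error only, while the 95% intervals of fold changes include the spread between libraries.

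In R 4.3.3, edgeR 4.0.16 was run on the whole table: filterByExpr by condition (minimum count 10, minimum total 15), TMM scaling, robust quasi-likelihood fitting on condition alone, two-sided tests and Benjamini-Hochberg adjustment over 15816 genes, threshold 0.05. The SE is the log2 fold change divided by the square root of F. CPM are TMM-scaled; exon lengths and coordinates come from GENCODE M21 (mm10), which held 96.4% of the identifiers. The fit was tested on simulated data. Replicate pairs differed far beyond counting noise (chi-square per degree of freedom of at least 24.3), so none was a duplicate.

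Members and gene lists were chosen with earlier results of these data known. The text names every member, up to 4 genes past the threshold per list in order of p, and the 4 genes with the smallest root mean square difference to each member that passed; exceptions are marked. Alternatives were other scalings, filters and tests (DESeq2 1.42.0, limma 3.58.1), a replicate block and leaving out each library.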

Additional observations from a re-analysis of the deposited data

Results flagged for a closer look

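Among the 20 groups of 4 libraries examined for the members, 2 held a library far from the other 3, where chance gives about 1 in 20 for values that vary continuously. Fstl3 stood at 18.4 CPM in DMSO replicate 2, with a gap to the next library of 0.927 of the group's range, against 10.5 to 11.1 CPM in the other DMSO libraries. DMSO replicate 2 also had the fewest genes detected and the highest Mstn value, and its part in the Fstl3 value was not tested beyond leaving it out (log2 fold change -0.84, edgeR adjusted p = 0.0362). Inhba stood at 0.999 CPM in DMSO replicate 4, from 38 counts, while the other DMSO libraries had 0, so that chance rate does not apply to it.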

How the results depend on the processing

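Every comparison was read under 19 alternatives, including 8 that left out 1 library each and 1 that set the main fit's threshold to 0.01. The calls on Fst and Mstn held in all that could give a value, with log2 fold changes from -3.09 to -2.99 for Fst and from -3.50 to -2.81 for Mstn. The call on Fstl3 (-1.08) was lost against a 1.5-fold change (adjusted p = 0.213) and at an adjusted p of 0.01, and its log2 fold change without 1 library ran from -1.25 to -0.84. Acvr1b passed with the stricter filter (-0.77) and with limma-voom (-0.69), and ran from -0.97 to -0.57 without 1 library. Tgfbr1 ran from 0.26 to 0.50 without 1 library. Without 1 library, 0 to 1 members were higher (1 without DMSO replicate 4) and 2 to 3 lower (2 without sal003 replicate 3). Of the other pathway genes, 3 were higher and 19 lower; the higher count was 7 with limma-voom, 0 against a 1.5-fold change, 1 at an adjusted p of 0.01 and 2 to 9 without 1 library (9 without DMSO replicate 2), and the lower count was 11 against a 1.5-fold change. The 1 higher marker gene became 0 against a 1.5-fold change. Over all genes, 1671 higher and 1923 lower became 266 and 737 against a 1.5-fold change, and 984 were higher at an adjusted p of 0.01. Same-numbered libraries did not deviate together (correlations from -0.00531 to 0.0354); with a replicate block 1660 genes were higher and 1770 lower, Fst had -3.06, Mstn -3.22, Fstl3 -1.11 and Acvr2b 1.76, and the calls on Twsg1 (adjusted p = 0.0732) and Pmepa1 (adjusted p = 0.0545) were lost. No scaling moved the median of all genes by over 0.1 on the log2 scale. Such scalings hold most genes near no change, so this cannot show whether all genes shifted together. TMM factors were 1.04 to 1.07 in sal003 libraries and 0.905 to 0.958 in DMSO libraries. Mstn, Inhbb, Fstl3 and Acvr2b, with low counts, are limited by depth and had no value under the stricter filter.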
